A study of Mus musculus with 10 samples.

Results

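The interferon regulatory factors, a family of DNA-binding proteins, were followed in cultured mouse leukemia cells through 8 genes, namely Irf1, Irf2, Irf3, Irf4, Irf5, Irf7, Irf8 and Irf9. They were chosen by name through the annotation of the array, with every probe set that the annotation pairs with 1 of these symbols and no other gene. This gave 14 of the 45101 probe sets on the array and 8 of the 18194 genes that could be named. Irf3 had 4 probe sets, Irf4, Irf5 and Irf8 had 2 each, and the other genes had 1 each.

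Expression was measured on 10 Affymetrix Mouse Genome 430 2.0 arrays, 1 array for each culture, and all values below are log2 intensities normalised by the authors, so that a difference of 1 is a doubling. RH-RAS cells carry DNMT3A with the R882H mutation together with NRAS with the G12D mutation, and 4 untreated lines (1 to 4) of separate origin were profiled. Lines 1 and 3 were also profiled after 4 days in 1 µM SGC0946, which inhibits the histone H3 lysine methyltransferase Dot1l. The remaining arrays hold 1 line transformed by the MLL-AF9 fusion and 3 lines (1 to 3) transformed by the NUP98-JARID1A fusion. All cells are transformed progenitors kept in serum and stem cell factor. None of the groups is a normal cell, the MLL-AF9 group is a single line, and the vehicle given to untreated cultures is not given in the sources used here. Separate origin is stated for the RH-RAS lines and not for the NUP98-JARID1A lines, so p-values that involve the latter measure only the spread between these samples, which may be technical.

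Interferon regulatory factors share an amino-terminal domain that reads GAAA repeats in DNA. Some of them relay signals: Irf3, Irf5 and Irf7 are switched on by sensors of microbial nucleic acids and drive interferon and cytokine genes, and Irf9 belongs to the complex that answers type I interferon. Irf1 is an activator induced by interferon gamma, and Irf2 binds the same sites and often opposes it. Irf8 and Irf4 act mainly in blood cells, where they pair with the ETS factor Spi1 (PU.1), and Irf8 directs myeloid progenitors towards monocytes and dendritic cells and away from granulocytes. Since much of the regulation of this family is by phosphorylation and entry into the nucleus, RNA levels describe only how much message was present.

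The promoter windows of the 4 genes that passed the test in at least 1 of the first 2 comparisons below are shown, because these are the members whose RNA levels differed. Each is the 250 bases before the annotated start in RefSeq (mouse GRCm38.p6), on the plus strand, which is the coding strand of all 4 genes. Capitals mark matches to 3 motifs searched on both strands: ISRE, which is GAAA and GAAA with any 2 bases between them, GAS, the STAT-type site TTCNNNGAA, and EICE, the composite of an ETS and an IRF site, which is GGAA and GAAA with any 2 bases between them. An EICE match that runs on into a further GAAA overlaps an ISRE match.
Irf8, chr8:120736108-120736357: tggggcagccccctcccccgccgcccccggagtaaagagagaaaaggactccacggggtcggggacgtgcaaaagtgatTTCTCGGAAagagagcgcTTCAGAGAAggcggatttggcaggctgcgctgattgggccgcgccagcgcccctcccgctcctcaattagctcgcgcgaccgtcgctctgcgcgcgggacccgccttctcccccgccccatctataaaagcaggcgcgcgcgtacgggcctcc
Irf5, chr6:29526375-29526624: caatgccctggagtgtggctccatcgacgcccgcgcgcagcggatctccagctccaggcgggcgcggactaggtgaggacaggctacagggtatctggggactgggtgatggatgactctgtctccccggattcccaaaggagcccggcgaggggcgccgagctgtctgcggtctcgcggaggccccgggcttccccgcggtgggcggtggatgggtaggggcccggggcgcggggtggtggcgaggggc
Irf1, chr11:53769764-53770013: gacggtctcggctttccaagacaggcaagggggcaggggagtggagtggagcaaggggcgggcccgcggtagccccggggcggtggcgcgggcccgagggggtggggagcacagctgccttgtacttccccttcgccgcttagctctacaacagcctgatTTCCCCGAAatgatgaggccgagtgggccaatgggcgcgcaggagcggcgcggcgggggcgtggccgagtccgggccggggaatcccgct
Irf2, chr8:46739495-46739744: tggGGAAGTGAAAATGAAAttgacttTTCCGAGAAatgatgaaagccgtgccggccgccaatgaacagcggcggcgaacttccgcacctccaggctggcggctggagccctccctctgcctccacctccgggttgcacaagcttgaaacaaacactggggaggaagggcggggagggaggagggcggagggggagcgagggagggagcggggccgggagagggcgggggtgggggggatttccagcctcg

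The Irf8 window held 2 GAS matches, TTCTCGGAA starting 171 bases before the start and TTCAGAGAA starting 153 bases before it. The Irf1 window held 1 GAS match, TTCCCCGAA, 90 bases before the start. The Irf2 window held all 3 motifs near its far end, with the EICE match GGAAGTGAAA at 247 bases, the overlapping ISRE match GAAAATGAAA at 241 bases and the GAS match TTCCGAGAA at 224 bases before the start. The Irf5 window held none of the 3, nor did those of Irf3, Irf4, Irf7 and Irf9. RefSeq listed 11 windows for the 8 genes, since Irf1, Irf8 and Irf9 have a second start each, and those second windows held no match. Among all 32851 windows that RefSeq gave 7.02% held a GAS match, 2.98% an ISRE match and 2.3% an EICE match, against 3, 1 and 1 of the 11 windows of this family. A match is a description of the letters and not of a bound site.

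All 8 genes passed the filter on low values, for which 2 or more of the 10 arrays had to read above their own median. Of the 14 probe sets 13 passed. The probe set 1421174_at of Irf4 lay between 3.74 and 4.49 on the 10 arrays, below every array median (5.72 to 5.82), and was not tested. The other probe set of Irf4, 1421173_at, passed only through 4 arrays, the 2 treated RH-RAS cultures and NUP98-JARID1A lines 2 and 3. All other genes of the family were above the array median on all 10 arrays through the probe set that represents them, the one with the highest mean.

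The myeloid progenitor identity of the cells was checked on 8 markers. Ptprc, Kit, Cd34, Mpo, Prtn3, Ctsg and Myb were above the array median on all 10 arrays, and Elane on 4, the MLL-AF9 array and the 3 NUP98-JARID1A arrays. Of 10 dendritic cell markers Zbtb46, Xcr1 and Cd209a were below the array median on every array, while Itgax, Siglech, Bst2, H2-Eb1 and Cd74 were above it on all 10 and H2-Aa and H2-Ab1 on 8. Of 8 B cell and plasma cell markers Cd79a, Ebf1 and Ms4a1 were below it on every array, while Cd79b was above it on 9 and Sdc1 on 8. Of 9 T and NK cell markers Cd3e and Cd4 were above it on all 10 arrays and Ncr1 on none. The mean of those 9 was 6.52 to 7.31 in untreated and 6.15 to 6.18 in treated RH-RAS lines, 5.52 in the MLL-AF9 line and 5.37 to 5.82 in the NUP98-JARID1A lines. The mean level of 9 monocyte and macrophage markers was 7.60 to 9.09 in untreated RH-RAS lines, with line 4 at the top, 11.3 to 11.4 after SGC0946, 8.62 in the MLL-AF9 line and 9.40 to 10.2 in the NUP98-JARID1A lines. The mean of 7 neutrophil markers was 4.77 to 4.94 in untreated and 5.24 to 5.28 in treated RH-RAS lines, 10.8 in the MLL-AF9 line and 10.0 to 13.1 in the NUP98-JARID1A lines.

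**Figure D1:**
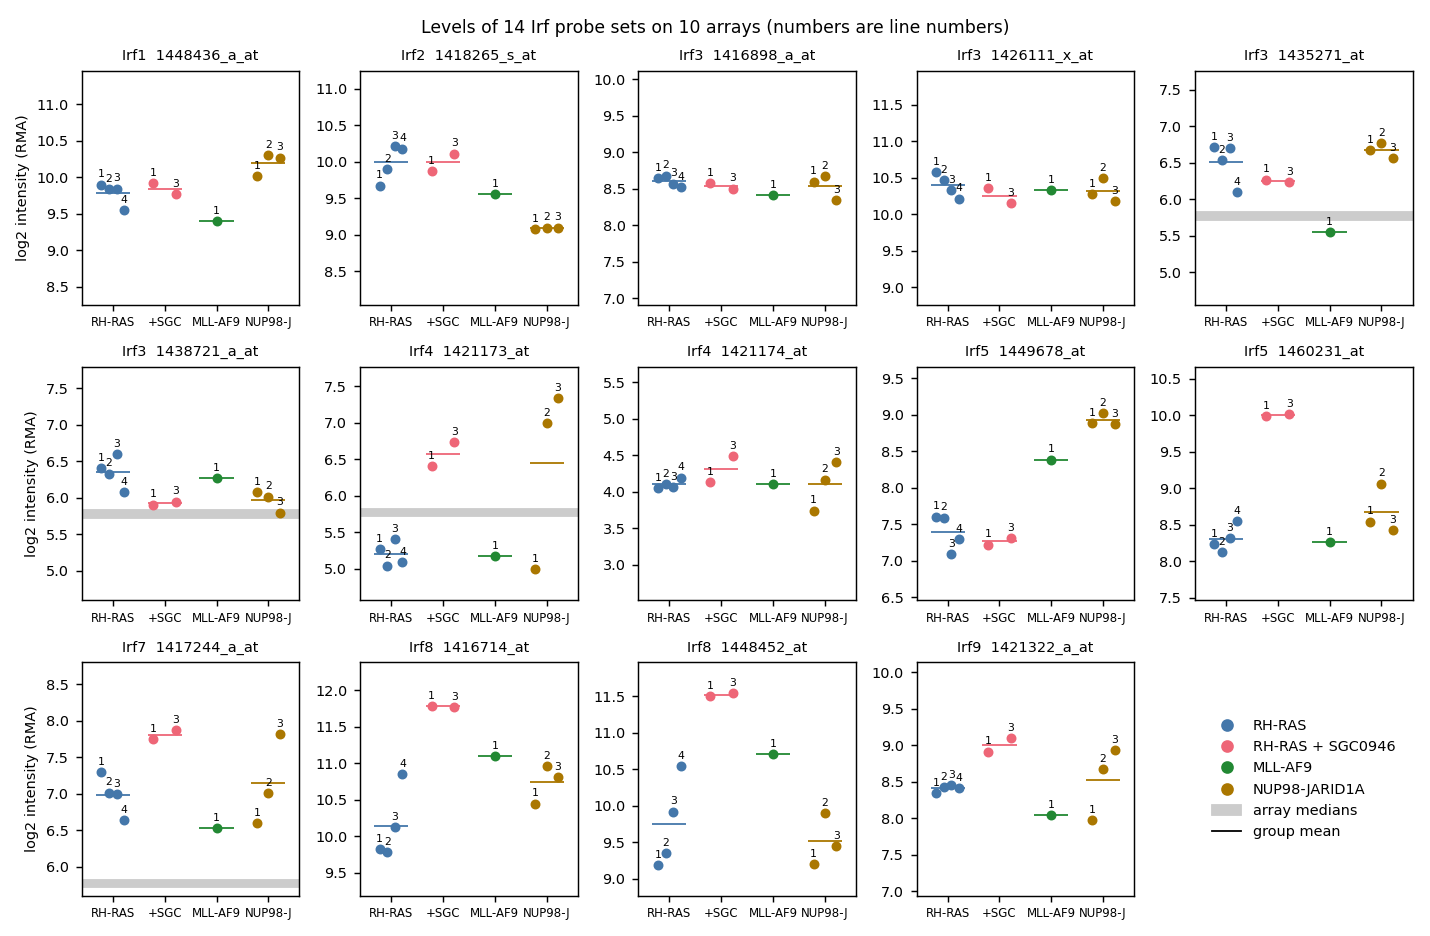
Level of each of the 14 probe sets of the family (one panel each) on the 10 arrays, as log2 intensity on the vertical axis, with untreated RH-RAS lines, treated RH-RAS lines 1 and 3, the MLL-AF9 line and NUP98-JARID1A lines along the horizontal axis. Both treated points of Irf8 (11.78 each on 1416714_at) lie above all other arrays, the 3 NUP98-JARID1A points of Irf2 (9.08 to 9.10) lie below all others, and both probe sets of Irf5 show different patterns.

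The first comparison asked which members change when Dot1l is inhibited. On their representing probe sets Irf8 and Irf5 rose more than 3-fold in both lines treated with SGC0946, and the other 6 genes did not pass the test. The 2 genes that rose stand beside a background of 12.0% of all 11993 genes tested that passed in either direction (6.84% higher and 5.12% lower). Over the 8 genes the median change was 0.64, against 0.02 over all genes tested, with Irf4 entering this median only because its level is high in the groups named above.

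Irf8, the monocyte and dendritic cell factor, had levels on probe set 1416714_at of 9.83, 9.79, 10.12 and 10.85 in untreated lines 1 to 4 and of 11.78 in both treated lines. The treated cultures were alike and lay above every untreated line, including line 4, which was itself higher than the others. The change was 1.80 ± 0.33 (SE; 95% interval 1.04 to 2.56), or 3.49-fold, with an adjusted p of 0.0160 in limma, and it was 1.95 in line 1 and 1.65 in line 3. The second probe set, 1448452_at, read 9.19, 9.35, 9.92 and 10.55 in untreated lines 1 to 4, then 11.51 and 11.54 in treated lines 1 and 3. It gave the same picture, with a change of 1.97 ± 0.41 (3.92-fold; adjusted p = 0.0302 over the 25000 probe sets tested). In these bulk cultures fewer or more cells of a type and less or more RNA per cell cannot be told apart, and 8 of the 9 monocyte and macrophage markers rose along with Irf8, by a median of 4.09 over the 9. In the same comparison 2 of 7 dendritic cell markers rose (Cd74 by 1.54 and Bst2 by 0.83, with a median of 0.83 over the 7). The progenitor markers Kit (-1.98), Cd34 (-1.67) and Myb (-1.03), 3 of 8, fell while Prtn3 rose by 2.09, and 2 of 8 T and NK cell markers fell (Gzma -5.25 and Cd3g -4.19). Over all genes tested 6.84% rose and 5.12% fell. Gzma and Cd3g passed the filter only through untreated RH-RAS arrays. Mrc1 and Adgre1 of the monocyte markers passed only through other arrays than those, so these 4 calls add no support. The count of 8 monocyte and macrophage markers and their median of 4.09 include Mrc1 and Adgre1. The part of these marker changes in the Irf8 result was not tested.

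Irf5, which acts downstream of Toll-like receptors in inflammatory cytokine induction, had levels on probe set 1460231_at of 8.24, 8.12, 8.32 and 8.55 in untreated lines 1 to 4 and of 9.98 and 10.01 in treated lines 1 and 3. The untreated and treated ranges lay well apart. The change was 1.72 ± 0.22 (SE; 95% interval 1.20 to 2.24), or 3.29-fold, with an adjusted p of 0.00610, and lines 1 and 3 changed by 1.75 and 1.69. The other probe set of Irf5, 1449678_at, went a different way: it read 7.61, 7.59, 7.10 and 7.30 in untreated lines 1 to 4 and 7.22 and 7.32 in treated lines 1 and 3, within the untreated range. Its change was -0.08 ± 0.18 (adjusted p = 0.852), being -0.38 in line 1 and 0.22 in line 3. The annotation ties 1460231_at to a RefSeq mRNA of Irf5 and 1449678_at to a GenBank record that is not a RefSeq mRNA, so the rise of Irf5 rests on 1 of its 2 probe sets.

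Leaving out any 1 of the 4 arrays of lines 1 and 3 took both calls over the threshold, with adjusted p of 0.0554 to 0.0677 for Irf5 and of 0.0846 to 0.115 for Irf8, while the changes stayed between 1.68 and 1.76 and between 1.66 and 1.95. With a term for each line added to the fit (line as a block), whose error still takes in the spread among NUP98-JARID1A lines, both remained past the threshold, at adjusted p = 0.0210 for Irf5 and 0.0140 for Irf8.

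Irf4, Irf7 and Irf9 were higher in both treated cultures than in all 4 untreated lines, yet did not pass the test in the fit of all arrays. Irf4, a factor of lymphocytes and of some dendritic cells and macrophages, read 5.27, 5.04, 5.41 and 5.09 in untreated lines 1 to 4 and 6.41 and 6.74 in treated lines 1 and 3. All untreated values lay below the array medians and both treated values above them. The difference was 1.23 ± 0.67 (95% interval -0.33 to 2.80; adjusted p = 0.299).

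Irf7, the factor that amplifies type I interferon production, read 7.29, 7.02, 6.999 and 6.64 in untreated lines 1 to 4 and 7.75 and 7.87 in treated lines 1 and 3, a difference of 0.67 ± 0.36 (adjusted p = 0.290). Irf9, the DNA-reading subunit of the interferon-activated complex, read 8.34, 8.43, 8.46 and 8.42, then 8.91 and 9.10, a difference of 0.61 ± 0.27 (adjusted p = 0.212). For both genes the treated and untreated ranges did not overlap. Between treated and untreated arrays of lines 1 and 3 alone, 66.2% of all genes tested had no overlap. That share leaves out the other untreated lines, and the share against all 4 of them was not counted.

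The standard errors of these 3 genes come from a fit in which the spread among NUP98-JARID1A lines also counts, and that spread was 2.35 from lowest to highest for Irf4, 1.22 for Irf7 and 0.96 for Irf9. In a fit without the NUP98-JARID1A arrays, chosen after the data were seen, the differences were the same and the SE fell to 0.13, 0.16 and 0.10. The adjusted p was then 0.00225 for Irf4, 0.0303 for Irf7 and 0.00983 for Irf9, and 5 of the 8 genes were called, with 2745 genes called in all in place of 1434. Irf4 is among the 5 although it entered the test only through arrays on which it is high, so its p adds no support, and 4 are called without it. The fit of lines 1 and 3 alone called the same 5, at adjusted p of 0.000806, 0.00756 and 0.00571 for these 3.

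Irf1, Irf2 and Irf3 showed no rise. Irf1 was at 9.90, 9.84, 9.85 and 9.55 in untreated lines 1 to 4 and at 9.92 and 9.77 in treated lines 1 and 3, a difference of -0.03 (95% interval -0.36 to 0.30). Irf2 was at 9.67, 9.90, 10.21 and 10.18, then at 9.87 and 10.11, a difference of 0.05 (95% interval -0.39 to 0.49). The treated cultures of both genes lay within the untreated range or within 0.02 of it. The sign of these small differences was not stable, since that of Irf1 turned to 0.03 when array medians were subtracted.

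Irf3, the constitutively made factor behind the first wave of interferon beta, had 4 probe sets, and 1 of them fell. On 1426111_x_at, which represents the gene, untreated lines 1 to 4 read 10.58, 10.47, 10.33 and 10.21 and treated lines 1 and 3 read 10.36 and 10.15, a difference of -0.20 ± 0.16 (adjusted p = 0.485). On 1438721_a_at they read 6.40, 6.33, 6.60 and 6.07, then 5.90 and 5.95, and the change was -0.57 ± 0.14 (adjusted p = 0.0494, and 0.0659 with no filter on low values). The treated values lay below all untreated ones there, but line 4 came close to them. The remaining probe sets, 1435271_at and 1416898_a_at, differed by -0.46 (adjusted p = 0.107) and -0.07. Counted by probe set, 3 of the 13 tested rose (both of Irf8 and 1 of Irf5), 1 fell and 9 did not pass, beside a background of 8.95% of 25000 probe sets called (4.75% higher and 4.2% lower).

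**Figure D2:**
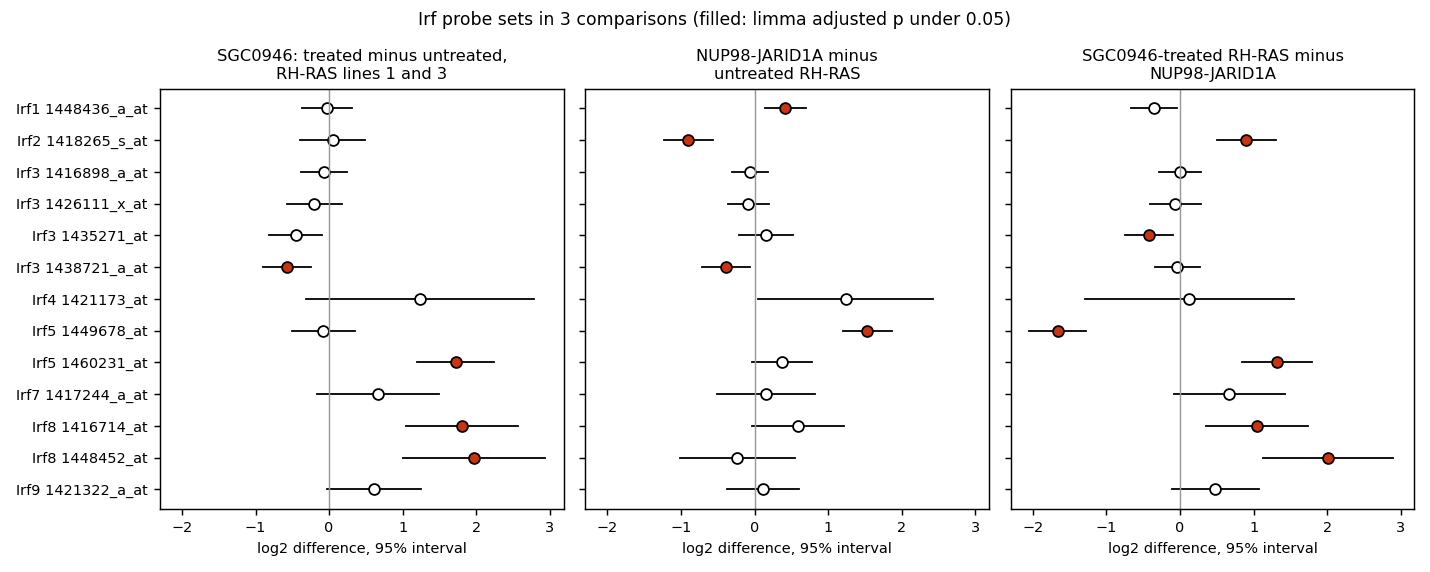
Log2 difference (horizontal axis) with its 95% interval for each of the 13 tested probe sets of the family in 3 comparisons: treated minus untreated RH-RAS lines 1 and 3, NUP98-JARID1A minus untreated RH-RAS lines, and treated RH-RAS minus NUP98-JARID1A lines. Both probe sets of Irf8 are raised by SGC0946 (1.80 and 1.97), Irf2 is lower in NUP98-JARID1A lines (-0.90), and the 2 probe sets of Irf5 lie on opposite sides of 0 in the last comparison (1.32 and -1.66).

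The second comparison asked how the family differs between cells transformed by NUP98-JARID1A and the untreated RH-RAS lines. On their representing probe sets Irf2 was lower and Irf1 higher in the NUP98-JARID1A lines, and the other 6 genes did not pass the test. Irf5 did pass on its other probe set, 1449678_at, with a difference of 1.53 (adjusted p = 0.000147 in limma). This is a comparison in which 51.0% of all genes tested passed (32.5% higher and 18.5% lower), so 2 of 8 is a smaller share than the background. The median difference over the 8 genes was 0.26, against 0.10 over all genes. The untreated RH-RAS arrays are the same ones as in the first comparison.

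Irf2, the repressor of the pair, was at 9.08, 9.10 and 9.10 in NUP98-JARID1A lines 1 to 3, a spread of 0.02, and at 9.67 to 10.21 in the RH-RAS lines. The groups did not overlap. The difference was -0.90 ± 0.14 (95% interval -1.22 to -0.57), so that Irf2 was 1.87-fold lower, with an adjusted p of 0.00149, and it was called in all 12 settings tried.

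Irf1, the activator, was at 10.02, 10.31 and 10.27 in NUP98-JARID1A lines 1 to 3 and at 9.55 to 9.90 in the RH-RAS lines. The groups did not overlap here either, though the gap between them was narrow. The difference was 0.42 ± 0.12 (95% interval 0.14 to 0.69), or 1.33-fold, with an adjusted p of 0.0202. Without NUP98-JARID1A line 2 or line 3 the adjusted p was 0.0614 or 0.0613. Among all genes tested, 54.8% had groups that did not overlap.

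Irf4 split the NUP98-JARID1A lines. It read 4.995 in line 1, just below the RH-RAS range of 5.04 to 5.41, and 6.99 and 7.34 in lines 2 and 3. The difference between groups was 1.24 ± 0.51 (adjusted p = 0.0798). Without line 1 it was 1.97 ± 0.15 (adjusted p = 0.000148), without line 2 it was 0.97 (0.211) and without line 3 it was 0.79 (0.236). Irf4 entered the test only through arrays on which it is high, so the p without line 1 adds no support. Irf9 was also lowest in line 1, with 7.98, 8.67 and 8.93 in lines 1 to 3 against 8.34 to 8.46 in RH-RAS lines, so that line 1 lay below and lines 2 and 3 above the RH-RAS range. Its difference was 0.12 ± 0.21 (adjusted p = 0.671), and 0.39 without line 1 (adjusted p = 0.0175). Irf7 read 6.60, 7.01 and 7.82, and line 3 alone stood above the RH-RAS range of 6.64 to 7.29 (difference 0.15 ± 0.29; adjusted p = 0.682).

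The spread among the 3 NUP98-JARID1A lines was at least 1 for Irf4 and Irf7, which is 2 of the 8 genes, as it was for 9.51% of all genes tested. Among the 4 RH-RAS lines Irf8 alone spread by that much (1.06), beside 2.99% of all genes.

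Irf8 was at 10.45, 10.96 and 10.81 in NUP98-JARID1A lines 1 to 3 on 1416714_at, above RH-RAS lines 1 to 3 but on either side of line 4 at 10.85. The difference was 0.59 ± 0.27 (adjusted p = 0.103), and without RH-RAS line 4 it was 0.82 ± 0.16 (adjusted p = 0.00706). The second probe set of Irf8 did not show this, reading 9.20, 9.91 and 9.45, within the RH-RAS range of 9.19 to 10.55 (difference -0.23 ± 0.34; adjusted p = 0.585). Irf5 also depended on the probe set. On 1460231_at it read 8.54, 9.06 and 8.43, overlapping the RH-RAS range of 8.12 to 8.55 (difference 0.37 ± 0.17; adjusted p = 0.109).

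On 1449678_at, Irf5 read 8.89, 9.03 and 8.87, above the RH-RAS range of 7.10 to 7.61. That difference was 1.53 ± 0.14, or 2.89-fold, with an adjusted p of 0.000147. The mean of both probe sets gave 0.95 ± 0.11 (adjusted p = 0.000416). Irf3 did not differ past the threshold on 3 of its probe sets, with -0.08 ± 0.12 (adjusted p = 0.586) on 1426111_x_at, and was lower on 1438721_a_at (-0.39 ± 0.14; adjusted p = 0.0466, and 0.0562 with no filter on low values). By probe set, 2 of the 13 were higher, 2 lower and 9 did not pass, against a background of 51.3% called (26.2% higher and 25.1% lower).

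The NUP98-JARID1A lines also differed from RH-RAS in cell type markers, with all 7 neutrophil markers and 4 of 9 monocyte and macrophage markers higher and 1 of the latter lower. Of the other lists, 5 of 8 progenitor markers were higher and 1 lower, and 4 of 7 dendritic cell markers were lower and 1 higher (median -1.01). Of the T and NK cell markers 3 of 8 were lower (Gzma -5.26, Cd3g -3.67 and Il7r -3.55). Over all genes tested 32.5% were higher and 18.5% lower in this comparison. Elane of the progenitor markers passed the filter only through the MLL-AF9 and NUP98-JARID1A arrays, and Gzma and Cd3g only through untreated RH-RAS arrays. All 7 neutrophil markers, and Adgre1 of the monocyte markers, were below the array median on every untreated RH-RAS array. They passed the filter only through other arrays. The calls of the 7 neutrophil markers and of Adgre1, Elane, Gzma and Cd3g therefore add no support either. The part of the marker differences in the values of Irf1, Irf2 and Irf5 was not tested.

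Treated RH-RAS cultures were next set directly against the NUP98-JARID1A lines, to place the level after SGC0946 beside that of another oncogene. Irf8 and Irf2 were higher in the treated RH-RAS cultures, Irf5 was higher on its representing probe set and lower on its other one, and the other 5 genes did not pass. The 3 genes called by their representing probe set stand beside 40.3% of all genes called (15.0% higher and 25.3% lower). These arrays are shared with both comparisons above.

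Irf8 at 11.78 in both treated cultures exceeded the 10.45 to 10.96 of the NUP98-JARID1A lines by 1.04 ± 0.30 (2.06-fold; adjusted p = 0.0275), and by 2.01 ± 0.38 on its second probe set (adjusted p = 0.00497). The first of these calls was lost without either treated array or without NUP98-JARID1A line 1 or 3, at adjusted p of 0.0503 to 0.126. Irf2, at 9.87 and 10.11 against 9.08 to 9.10, was higher by 0.90 ± 0.17 (adjusted p = 0.00545), and this call was lost without treated line 3 (adjusted p = 0.0573).

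Irf5 on 1460231_at was higher by 1.32 ± 0.20, or 2.50-fold (adjusted p = 0.00224). On 1449678_at it was 3.16-fold lower (-1.66 ± 0.17; adjusted p = 0.000354), and with the mean of both probe sets the difference was -0.17 (adjusted p = 0.333). No single direction can therefore be given for Irf5 between these groups. Irf1 (-0.36 ± 0.13; adjusted p = 0.0627), Irf7 (0.67 ± 0.32; 0.139), Irf9 (0.48 ± 0.25; 0.165), Irf4 (0.13 ± 0.61; 0.886) and Irf3 (-0.06 ± 0.14; 0.759) did not pass. Without NUP98-JARID1A line 1 Irf4 was lower in the treated cultures and passed (-0.60 ± 0.16; 0.0236), as did Irf1 (-0.45; 0.0255), and without line 3 Irf7 (1.01; 0.00915) and Irf9 (0.68; 0.0489) passed. By probe set, 4 of the 13 were higher, 2 lower and 7 did not pass, against 39.9% called among all probe sets (19.1% higher and 20.8% lower).

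The MLL-AF9 line was a single array and was compared with the 4 untreated RH-RAS lines without a test. A gene was counted if it lay at least 1 from the RH-RAS mean and outside the RH-RAS range. None of the 8 genes met this, beside 13.0% of all genes tested (7.21% higher and 5.78% lower). Irf8 came close, at 11.10, which is 0.95 above the RH-RAS mean of 10.15 and above line 4 (10.85). Its second probe set was 0.96 above the mean.

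The other members lay nearer. Irf7 (6.53), Irf2 (9.56), Irf1 (9.41) and Irf9 (8.05) were below the RH-RAS range, and their differences from its mean were -0.46 (log2), -0.43, -0.38 and -0.36 in the order given. Irf4 (5.17), Irf5 on 1460231_at (8.26) and Irf3 on 1426111_x_at (10.33) were inside the range. Lying outside the range was common, at 75.7% of all genes. Among the probe sets that do not represent their gene, 1449678_at of Irf5 read 8.39, a difference of 0.99 from the mean, and 1435271_at of Irf3 read 5.55, a difference of -0.97.

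RH-RAS line 4, grown without inhibitor, stood between the other untreated lines and the treated ones for Irf8. It read 10.85 on 1416714_at, against a mean of 9.91 ± 0.18 (SD, n = 3) in lines 1 to 3 and 11.78 in the treated cultures, and 10.55 on 1448452_at against 9.49 ± 0.38. For Irf5 on 1460231_at it was 0.32 above the mean of lines 1 to 3, again between them and the treated cultures. Lying in between was seen for 25.1% of all genes tested and for 76.2% of the genes called under SGC0946. The monocyte and macrophage markers of line 4 also had the highest mean of the untreated lines (9.09).

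Not all members were higher in line 4. In line 4 Irf7 (6.64), Irf1 (9.55) and Irf3 (10.21) were lower than in lines 1 to 3, with differences of -0.46, -0.31 and -0.25 from their mean, while for Irf7 the treated cultures were higher. On 1438721_a_at of Irf3, line 4 (6.07) lay between lines 1 to 3 and the treated cultures, which were lower. None of the 8 genes lay outside the range of lines 1 to 3 by at least 1 in line 4, as 1.13% of all genes did. Irf9 differed by 0.01, and Irf2 and Irf4 lay inside the range of lines 1 to 3.

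The members differed in the order of the groups. By group mean on the representing probe set, Irf8 ran from untreated RH-RAS (10.15 ± 0.49, SD, n = 4) through NUP98-JARID1A (10.74 ± 0.26, n = 3) and MLL-AF9 (11.10, 1 array) to treated RH-RAS (11.78 ± 0.0046, n = 2). The first 2 of these neighbours overlap. Irf5 on 1460231_at ran from MLL-AF9 (8.26) and untreated RH-RAS (8.31 ± 0.18), which do not differ beyond the spread. From there it ran through NUP98-JARID1A (8.68 ± 0.34), which overlaps untreated RH-RAS and not MLL-AF9, to treated RH-RAS (10.00 ± 0.02). Irf2 ran from NUP98-JARID1A (9.09 ± 0.01) through MLL-AF9 (9.56) to untreated and treated RH-RAS (both 9.99, with SD 0.25 and 0.17), which overlap. Irf1 ran from MLL-AF9 (9.41) through untreated RH-RAS (9.78 ± 0.16) and treated RH-RAS (9.84 ± 0.11), which overlap, to NUP98-JARID1A (10.20 ± 0.16).

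For the 4 genes called in either of the first 2 comparisons, the genes most alike over the 10 arrays were found by Pearson correlation among 4820 tested genes that span at least 1. The points share 4 groups of related lines, so the values describe these arrays only. For Irf8 they were S1pr2 (r = 0.964), Il6ra (0.944) and Sgk3 (0.938), a sphingosine 1-phosphate receptor, the interleukin 6 receptor and a kinase. For Irf5 on 1460231_at they were Cd83 (0.965), Cx3cr1 (0.960) and Rasa4 (0.947). Of these Cd83 marks activated antigen-presenting cells and Cx3cr1 is the fractalkine receptor of monocytes. The other probe set of Irf5, 1449678_at, had a different pattern and was not compared. For Irf1 they were Card19 (0.964), Sqstm1 (0.961) and Rhof (0.958), and for Irf2 they were Zfp141 (0.982), Isg20l2 (0.972) and Zfp729a (0.971).

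The genes around the family were taken from 4 lists: the interferon ligands, receptors and JAK-STAT relay, the sensors and adaptors that activate Irf3, Irf5 and Irf7, the partners and co-regulators of the family on DNA, and genes known to be induced through it.

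Among ligands and receptors, the interferon genes Ifna4, Ifnb1 and Ifng were below the array median on all arrays, and 11 of the 14 genes measured were tested. After SGC0946 2 of the 11 rose and 9 did not pass, with a median of 0.37, where 6.84% of all genes rose and their median was 0.02. These were Ifngr2, a chain of the interferon gamma receptor (1.24 ± 0.15; adjusted p = 0.00528), and Socs3, a feedback inhibitor of cytokine receptors (1.18 ± 0.26; 0.03002). In NUP98-JARID1A lines 4 of 11 were higher and 7 did not pass, with a median of 0.07, where 32.5% of all genes were higher, 51.0% were called and the median was 0.10. Ifnar1, a chain of the type I receptor, was higher by 0.97 ± 0.10 (0.000253) on its representing probe set but its other one differed by -1.05. Tyk2, the kinase bound to that chain, was higher by 0.67 ± 0.11 on one probe set, with -0.25 on the other, and Ifngr2 was higher by 0.55 ± 0.12.

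Among sensors and adaptors, 3 of 14 tested rose after SGC0946 and 11 did not pass (median 0.13), beside the 6.84% of all genes that rose. Ifih1, the cytosolic RNA sensor MDA5, rose by 1.97 ± 0.29 (adjusted p = 0.00860), Myd88, the adaptor that links Toll-like receptors to Irf5 and Irf7, by 1.17 ± 0.13 (0.00380), and Ticam1, the adaptor TRIF, by 0.52 ± 0.11 (0.0238). All of these were also higher in NUP98-JARID1A lines, where 7 were higher, 2 lower and 5 did not pass (median 0.28), beside 32.5% higher and 18.5% lower over all genes. The 3 that differed most there were Ikbke, a kinase of Irf3 and Irf7 (2.60 ± 0.24; 0.000159), Tlr7, the endosomal RNA receptor (1.82 ± 0.49; 0.0174), and Ifih1 (1.59 ± 0.25; 0.00166). In the MLL-AF9 array Ikbke was 2.39 and Ifih1 2.12 above the RH-RAS mean, and Sting1, the adaptor of DNA sensing, differed from it by -2.08.

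Among the partners, Spi1, which Irf8 and Irf4 need to bind EICE sites, was at 9.99, 9.94, 10.09 and 10.12 in untreated RH-RAS lines 1 to 4 and at 11.19 and 11.31 in treated lines 1 and 3. It rose by 1.21 ± 0.12 (adjusted p = 0.00350). The NUP98-JARID1A lines, at 11.49, 11.54 and 11.72, were higher than RH-RAS by 1.55 ± 0.09 (2.53e-05), and the MLL-AF9 array stood at 11.38. Spi1 was lower in the 4 untreated RH-RAS lines than on all other arrays, whereas the levels of Irf8 in the NUP98-JARID1A lines overlapped those of the untreated RH-RAS lines.

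Batf, which pairs with Irf4 and Irf8 at AP-1 composite sites, rose by 0.55 ± 0.12 (adjusted p = 0.0303) after SGC0946 and was higher by 0.81 ± 0.09 in NUP98-JARID1A lines. Batf3, its relative in dendritic cells, differed by 0.53 (0.262) and was lower (-0.60; 0.0385) in the second comparison. Ikzf1, the Ikaros factor, fell (-0.65 ± 0.14; 0.0259) and was lower in NUP98-JARID1A lines (-0.38; 0.0250), and Etv6, an ETS repressor reported to work with Irf8, differed by -0.35 (0.237) and was higher by 0.83 ± 0.13 (0.00153). Irf2bpl, of the family that binds Irf2, was lower (-2.17 ± 0.16; 7.64e-05) in NUP98-JARID1A lines, and its 3 probe sets were all lower there, with differences between -0.65 and -2.17. In all, 2 of 11 partners rose, 1 fell and 8 did not pass after SGC0946 (median -0.08), and 3 were higher, 6 lower and 2 did not pass in NUP98-JARID1A lines (median -0.23). Over all genes 12.0% and 51.0% were called in these comparisons.

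Of the genes known to be induced through the family, 13 of 17 measured were tested. After SGC0946 2 rose and 11 did not pass, with a median of 0.72, beside 6.84% of all genes that rose and their median of 0.02. Klf4, a monocyte factor downstream of Irf8, rose by 4.57 ± 0.32 (adjusted p = 0.00146), and Cybb, the oxidase subunit controlled by Irf8, Irf1 and Spi1, rose by 4.22 ± 0.60 (0.00736). Both genes are also part of the monocyte programme, whose markers rose in the same cultures. Klf4 was above the array median only in the treated cultures, in RH-RAS line 4 and in the MLL-AF9 line. Untreated lines 1 and 3 were below it, so the call of Klf4 adds no support.

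In the NUP98-JARID1A lines 10 of the 13 were higher, 1 lower and 2 did not pass, with a median of 1.03, beside 32.5% higher, 18.5% lower and a median of 0.10 over all genes. Among the 10, Gbp2, Ifit1 and Cxcl10 were below the array median on every untreated RH-RAS array. They passed the filter only through other arrays, so their calls add no support. Cybb (2.99 ± 0.49; 0.00190), the antiviral oligoadenylate synthetase Oas1a (2.35 ± 0.59; 0.0131) and the antiviral Ifit2 (2.00 ± 0.27; 0.000766) differed most. Klf4 was the one that was lower (-1.32 ± 0.32; 0.0118). Of the arrays compared here only RH-RAS line 4 read above its median for Klf4, so this call adds no support either. Oas1a read 8.02, 9.04 and 10.90 in NUP98-JARID1A lines 1 to 3, lowest in line 1 and highest in line 3, as Irf7, Irf9 and Ifit1 were. Other genes of the list had another order. Cybb (10.73, 9.06 and 11.12) and Ifit2 (8.02, 7.93 and 8.82) were lowest in line 2, as were Ifit3, Cxcl10 and Gbp2. The mean level of the whole list was 6.42 to 6.56 in untreated RH-RAS lines, 7.43 to 7.47 after SGC0946, 7.08 in the MLL-AF9 line and 7.06 to 7.76 in NUP98-JARID1A lines.

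**Figure D3:**
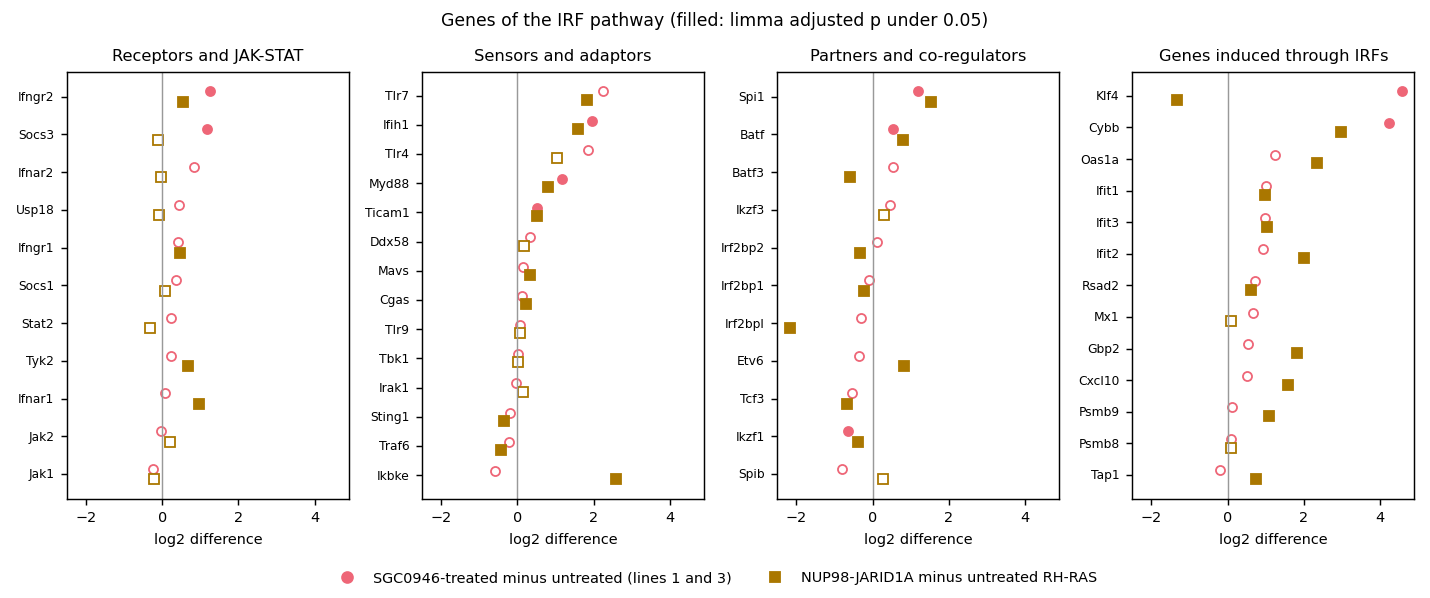
Log2 difference (horizontal axis) of each tested gene in the 4 lists around the family, one panel per list, with circles for treated minus untreated RH-RAS lines 1 and 3 and squares for NUP98-JARID1A minus untreated RH-RAS lines. Klf4 is the gene with opposite called changes (4.57 and -1.32), and Ikbke (2.60) and Irf2bpl (-2.17) differ in NUP98-JARID1A lines. Klf4 was above the array median on only 4 of the 10 arrays, and its calls add no support.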

How the data were processed

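The arrays measured total RNA from 10 cultures. The authors deposited log2 intensities, 1 per probe set, made with RMA per the submitters' processing notes. The version of RMA and any batch or scan date are not known from the labels, and no batch term was used. RMA corrects background, normalises quantiles and gives no detection call, and it compresses low intensities, so folds near the bottom of the range are understated. After sorting, the arrays differed by no more than 0.163, and the values were used as deposited.

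Of the 45101 probe sets, 34958 had 1 gene symbol, 932 had several and 9211 were not listed in the annotation supplied with the array, which can be old. Of those with 1 symbol 99.4% were matched by gene identifier to the mouse RefSeq table (GRCm38.p6), which gave names only. The probe set with the highest mean stood for each gene, and 11993 of 18194 genes passed the filter and were tested. Probe sets were also tested singly, 25000 in all.

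Moderated tests were run with limma 3.58.1 (R 4.3.3; functions lmFit and eBayes), and p-values were adjusted by Benjamini-Hochberg over all features tested, with a threshold of 0.05. The fits were checked on simulated data. SGC0946 was tested in a fit of all 10 arrays, as treated minus untreated lines 1 and 3. NUP98-JARID1A was tested in a fit that left out the treated cultures (8 arrays). Lines 1 and 3 are the same lines with and without inhibitor, and their deviations correlated at 0.292; those of equally numbered RH-RAS and NUP98-JARID1A lines (-0.05, -0.02 and 0.07) share only a number. Alternatives changed the probe set rule, the filter, the centring, the variance prior, the block and the arrays included. Genes of the lists named are the 3 with the largest change among those called in each of the first 2 comparisons, and Spi1, Batf, Batf3, Ikzf1 and Etv6 always. Sting1 was added after its value was seen. The members, the lists and the line 4 comparison were chosen with earlier results of these data known. Precision is limited by how few arrays there are.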

Additional observations from a re-analysis of the deposited data

Results flagged for a closer look

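In 3 probe sets the difference after SGC0946 had opposite signs in lines 1 and 3, with 1 array on each side of each line, so the difference between lines was not tested. For Irf5 on 1449678_at it was -0.38 in line 1 and 0.22 in line 3, which are 0.61 apart. For Irf2 it was 0.20 and -0.10 (line 3 minus line 1, -0.30), and for Irf1 it was 0.02 and -0.08 (-0.10).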

How the results depend on the processing

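The rise of Irf8 and Irf5 after SGC0946 kept its direction in all 13 settings tried (1.63 to 1.95 for Irf8 and 0.82 to 1.78 for Irf5) and its call in 9. The settings without a call were those that left out 1 of the 4 arrays of lines 1 and 3. There limma called 0 of the 8 genes, and Irf5 and Irf8, 2 of the 8, had an unadjusted p under the threshold. Over the leave-one-out fits the calls after SGC0946 ranged from 28 to 1482 of all genes and from 0 to 2 of the 8. All genes called numbered 844 with line as a replicate block, of which 794 were among the 1434 of the fit without it, 2745 without the NUP98-JARID1A arrays and 3746 in the fit of lines 1 and 3 only. The last 2 fits called 5 of the 8 genes, or 4 without Irf4, whose p adds no support, and the block changed neither call after SGC0946. In the NUP98-JARID1A comparison the number as a replicate block gave Irf8 0.82 (adjusted p = 0.0157) and Irf1 0.34 (0.0765). That block pairs lines that share only a number and gives RH-RAS line 4 a term of its own. Its differences are those of the fit without RH-RAS line 4, so it adds no separate support in the NUP98-JARID1A comparison. Calls among the 8 genes ranged from 1 to 4 when arrays were left out, both there and between treated RH-RAS and NUP98-JARID1A lines, where all genes called ranged from 2228 to 4977. With a difference of at least 2 in place of 1, 522 genes of the MLL-AF9 array passed.

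Differences that changed sign were, after SGC0946, Irf1 at 0.0273 with array medians subtracted, 0.0596 with all 4 untreated lines as control and -0.106 to 0.0485 with arrays left out, and Irf2 at -0.22 to 0.32. In the NUP98-JARID1A comparison Irf7 ranged from -0.18 to 0.43 and Irf9 from -0.0869 to 0.391 with arrays left out. Between treated RH-RAS and NUP98-JARID1A lines Irf3 ranged from -0.167 to 0.0425 and Irf5 was -0.17 with the mean of its probe sets, which joins 2 probe sets of opposite sign. Irf4 ranged there from -0.60 to 0.58, and the lowest value, without NUP98-JARID1A line 1, was past the threshold (adjusted p = 0.0236), where the value with all arrays, 0.13, was not. With no filter on low values the probe sets called numbered 3 in place of 4 after SGC0946, 3 in place of 4 in the NUP98-JARID1A comparison and 5 in place of 6 in the third. The cause of the other changes was not tested.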
